A study of Mus musculus with 12 samples.

Results

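The 6 antibody-bound libraries of a mouse skin series, which holds 12 libraries in all, were compared between UV-exposed and control skin: UV 1, UV 2 and UV 3 against Control 1, Control 2 and Control 3. They are the IP libraries, made from RNA fragments pulled down with an antibody to N6-methyladenosine (m6A); every gene of the count table entered, the samples were not paired, and the values were not corrected for input. The input libraries of the same 6 samples, made without the antibody step, were used beside them. The labels describe the groups only as skin with UV and skin as control. The sources used here do not give strain, sex, age, the kind, dose and timing of UV, the time of day of collection or the antibody. The series concerns KIAA1429 (mouse Virma), Mfap4 and collagen synthesis in photoaged skin. The labels do not state that the samples of a group were separate animals, and the p-values describe only how these samples vary, which may be technical.

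m6A is a methyl mark on adenosines within messenger RNA. It is written by a complex built on METTL3, METTL14, WTAP and the large scaffold protein VIRMA, is removed by FTO and ALKBH5, and is read by YTH-domain proteins, which influence the stability and translation of the transcript. The mark is often dense near stop codons and in long internal exons. An IP library therefore counts a transcript in proportion both to how abundant it is and to how well its fragments are captured, and the IP comparison alone does not separate the 2. Less RNA of a cell type in whole skin can also mean fewer cells or less RNA per cell, which cannot be told apart in bulk libraries.

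Reads in genes numbered from 34339480 to 92163619 in the UV IP libraries and from 27685764 to 58756881 in the control IP libraries. The 10 most abundant genes took 23.5% to 27.0% of an IP library. The keratinocyte gene Krt14 and the fibroblast gene Col1a1 were abundant in all 6, while the liver gene Alb reached at most 0.063 CPM (read counts scaled to a common library size with TMM), and skin markers were thus present in every library. Control 2 stood apart from the other control libraries: the hair gene Tchh took 12.2% of its reads, and it had the lowest Krt1 and Krt14. Over log2 CPM of genes, Control 3 correlated at 0.989 to 0.992 with the UV libraries, and at 0.992 with Control 1 and 0.986 with Control 2. Reads of 22 hair genes summed to 31254, 76339 and 79740.0 CPM in the UV IP libraries, against 93151, 128670.0 and 59011 CPM in the control ones. The part of hair content in the changes below was not tested. Results that rest on single libraries are given with and without them.

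The comparison asked which antibody-bound transcripts differ in amount between UV and control skin. Of 22789 genes tested, 570 were called, which is 2.5% of them: 330 higher (1.45%) and 240 lower (1.05%) in UV. Calls were made with the quasi-likelihood test of edgeR at a Benjamini-Hochberg adjusted p below 0.05. Of the called genes, 137 were at least 2-fold higher and 130 at least 2-fold lower. All 570 had UV and control values that did not overlap, as did 24.6% of all genes tested. The median log2 change of all genes was −0.00097. TMM scaling sets this centre near 0, so it cannot show whether most bound transcripts shifted together. Called genes were found at every abundance, from 1.09% of genes under 1 CPM to 3.31% of genes between 5 and 20 CPM and 2.47% of genes of 100 CPM or more. The number of calls depended on single libraries. Leaving out UV 1, UV 2 or UV 3 gave 79, 89 and 237 calls in that order, and leaving out Control 1, Control 2 or Control 3 gave 67, 370 and 1248. In all 6 omissions 52 of the genes were called, 24 higher and 28 lower.

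**Figure D1:**
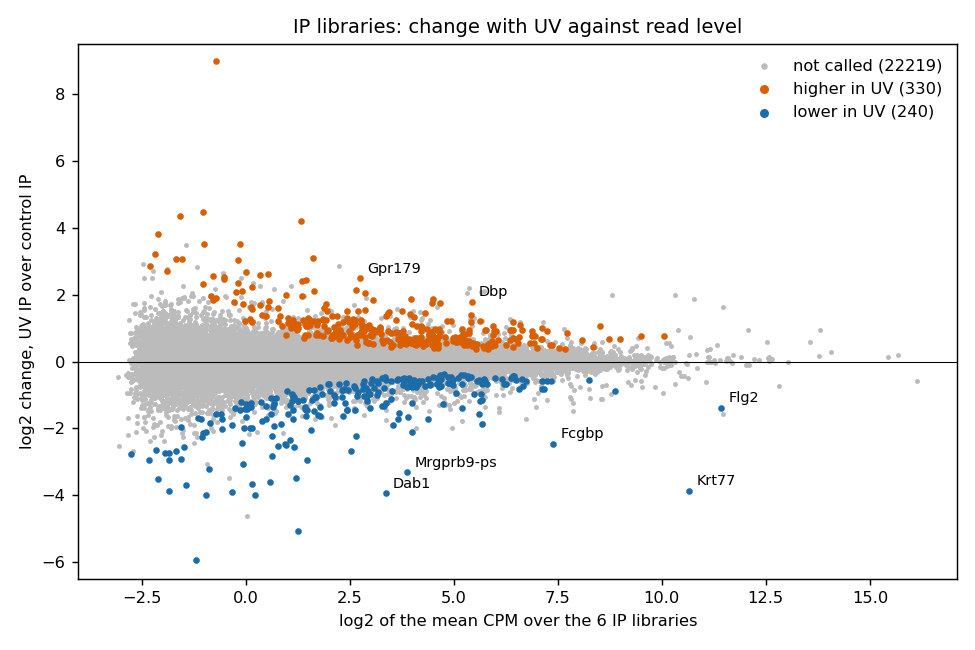
Each point is 1 gene: the x axis is the log2 of its mean CPM over the 6 IP libraries, the y axis its log2 change, UV IP over control IP. The 330 genes called higher and 240 called lower lie on both sides of 0 across the range of abundance; Krt77 and Flg2 are labelled among the abundant genes that fell. The highest point, Gm5724, had 0 reads in all 3 control IP libraries, so its fold is not a measured size.

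By class, 471 of the 15570 protein-coding genes tested were called (3.03%), against 23 of 1374 long noncoding RNA genes (1.67%) and 12 of 1551 pseudogenes (0.774%). None of 131 snoRNA genes (4 with an unadjusted p below 0.05, 0 by DESeq2), 167 miRNA genes (13 and 1) or 116 snRNA genes (4 and 0) was called in edgeR. Over all 22789 genes tested, 4463 had an unadjusted p below 0.05 in edgeR, and DESeq2 called 1372. Classes came from RefSeq, which matched 19158 of the genes. Among genes with a mean of at least 5 CPM, 77.6% of the called genes carried a deposited m6A peak, and 77.5% of all those tested did. Over all abundances the shares were 66.1% of called and 53.3% of tested genes. The median log2 ratio of IP over input differed with the abundances taken: at 5 CPM or more it was 0.078 for called genes, against 0.12 for all those tested, and over all abundances 0.13 for called genes (0.066 higher, 0.25 lower), against 0.039 for all tested.

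The largest rises in UV IP among genes of at least 5 CPM included those of Gpr179, Igsf9b and Gria3 (positions on GRCm38). Gpr179 (chromosome 11, 97332109 to 97352077), a gene of an orphan receptor known from retinal bipolar cells, had 13.9, 12.6 and 7.798 CPM in the UV IP libraries, against 2.002, 2.46 and 1.48 CPM in the control ones. The lowest UV library lay well above the highest control library. The log2 change was 2.497 (SE 0.25, adjusted p = 0.00517), and the transcript was also strongly retained by the antibody, with a mean log2 IP over input of 1.47. Of its 11 deposited peaks, 10 lay in exon 11. Igsf9b (chromosome 9, 27299204 to 27357546), which encodes an adhesion molecule of inhibitory synapses, had 13.9, 13.04 and 11.9 CPM in the UV IP libraries, against 3.95, 3.58 and 3.19 CPM in the control ones. The UV values were close together and far above the control values, and the log2 change was 1.85 (SE 0.12, adjusted p = 0.000979). Gria3, a subunit gene of AMPA glutamate receptors, had 16.3, 15.3 and 16.4 CPM in the UV IP libraries, against 5.76, 6.28 and 5.15 CPM in the control ones. Both groups were tight and did not overlap, with a log2 change of 1.47 (SE 0.11, adjusted p = 0.00114).

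Gsto1, which encodes a glutathione transferase of the omega class, had 42.5, 27.3 and 36.98 CPM in the UV IP libraries, against 9.06, 6.505 and 13.9 CPM in the control ones. All controls lay below all UV values, and the log2 change was 1.87 (SE 0.27, adjusted p = 0.0135). Ces2f, a carboxylesterase gene, had 28.3, 19.9 and 25.5 CPM in the UV IP libraries, against 5.69, 6.33 and 8.38 CPM in the control ones. The groups were apart, with a log2 change of 1.87 (SE 0.18, adjusted p = 0.00351). Its neighbour Ces2g changed by 1.76 (adjusted p = 0.0228), and reads of these closely related genes may have been shared, so each value is uncertain. Abcb1b, which encodes a drug efflux pump, had 23.5, 18.98 and 17.3 CPM in the UV IP libraries, against 7.27, 5.75 and 8.04 CPM in the control ones, a log2 change of 1.51 (SE 0.16, adjusted p = 0.0056) with no overlap. The other genes that rose were Fgfbp3 (2.14), whose protein binds and carries fibroblast growth factors, Serpinb6c (1.75), a protease inhibitor gene with close paralogs, the matrix gene Tnn (1.53), which encodes tenascin-N, and the homeobox gene Hoxb9 (1.51). Hoxb9 (adjusted p = 0.061) was no longer called without Control 1. Gsto1 (adjusted p up to 0.0798) was no longer called without UV 1 or Control 1. Fgfbp3 (adjusted p up to 0.091) was no longer called without any 1 of UV 1, UV 2 or Control 1. Ces2g (adjusted p up to 0.112) was no longer called without any 1 of UV 1, UV 2, UV 3 or Control 1. Serpinb6c (adjusted p up to 0.192) and Tnn (0.15) were no longer called without any 1 of UV 1, UV 2, UV 3, Control 1 or Control 2. Serpinb6c was also not called when genes were required to have a mean of 1 CPM (adjusted p = 0.0594).

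**Figure D2:**
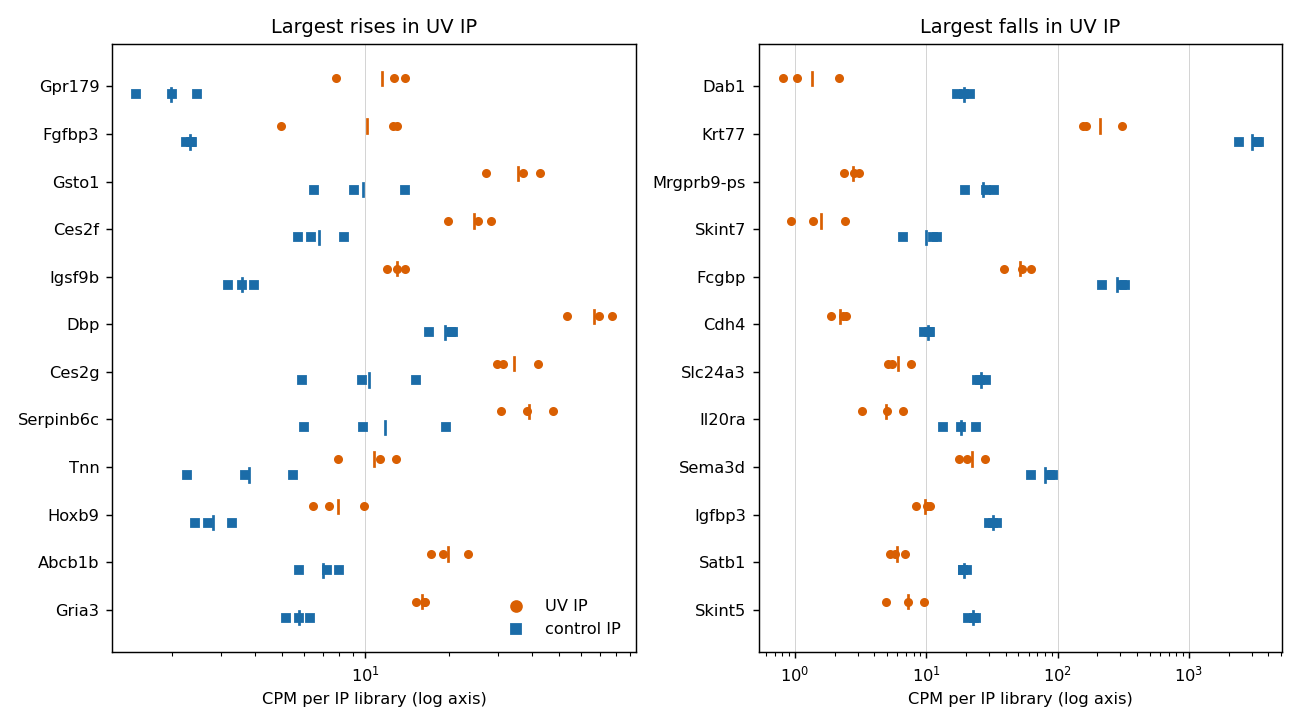
CPM of the 12 genes with the largest rises (left) and the 12 with the largest falls (right) in each IP library, on log axes; circles are UV IP, squares control IP and ticks the group means. In every one of the 24 genes the 2 groups do not overlap, which was a condition of their choice; Dab1 and Krt77 show the widest gaps.

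The largest falls included an epidermal keratin, an adaptor protein and a growth factor binding protein. Krt77 (chromosome 15, 101858732 to 101869705), a keratin gene of the upper epidermis, had 307, 156 and 165 CPM in the UV IP libraries, against 3319.5, 3387 and 2397 CPM in the control ones. Every control library held several times more than any UV library, and the log2 change was −3.86 (SE 0.29, adjusted p = 0.00119), with Krt77 called in all 6 omissions. Dab1 (chromosome 4, 103619359 to 104744844), which encodes the adaptor protein of reelin signalling, had 2.17, 0.802 and 1.03 CPM in the UV IP libraries, against 19.5, 17.03 and 21.4 CPM in the control ones. The highest UV value lay far below the lowest control value, with a log2 change of −3.94 (SE 0.32, adjusted p = 0.00164). Igfbp3, an insulin-like growth factor binding protein gene, had 10.2, 8.36 and 10.7 CPM in the UV IP libraries, against 34.6, 31.9 and 29.8 CPM in the control ones. The UV libraries were all lower, with no overlap. The log2 change was −1.73 (SE 0.12, adjusted p = 0.000979). Satb1 (chromosome 17, 51736187 to 51833290), which encodes a chromatin organiser, had 6.83, 5.27 and 5.81 CPM in the UV IP libraries, against 19.04, 20.3 and 18.8 CPM in the control ones, again without overlap, and a log2 change of −1.71 (SE 0.12, adjusted p = 0.000979).

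Cdh4, the R-cadherin gene, fell by 2.23 on the log2 scale (SE 0.14, adjusted p = 0.000926), the calcium exchanger gene Slc24a3 by 2.11 and the semaphorin gene Sema3d by 1.87. Fcgbp, which encodes a secreted mucin-like protein, had 38.8, 53.04 and 62.9 CPM in the UV IP libraries, against 323, 215 and 310.2 CPM in the control ones, a log2 change of −2.45 (SE 0.21, adjusted p = 0.00198). All 3 UV values lay below the lowest control value. The IL-20 family receptor gene Il20ra had a log2 change of −1.91 (adjusted p = 0.0151), and the pseudogene Mrgprb9-ps, whose reads may be shared with its Mrgprb paralogs, of −3.31 (adjusted p = 0.000926). Skint7 (−2.69) and Skint5 (−1.65), members of a family whose founder Skint1 selects epidermal gamma delta T cells in the mouse thymus, also fell; these genes have close paralogs too. Il20ra (adjusted p up to 0.0838) was no longer called without UV 1 or UV 2. Skint5 (adjusted p up to 0.0586) was no longer called without UV 1 or Control 1. Skint7 (adjusted p up to 0.0566) was no longer called without UV 2 or Control 1.

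The authors' deposited peaks give read counts within some of these transcripts. The peaks given were picked after their values were seen; their counts are means of 3 libraries per group, and exons are the merged exons of the annotation in the count table, numbered in the direction of transcription. In the last exon of Dab1 (exon 25, chr4:104741548-104741907, GRCm38) a peak had 0.369 ± 0.155 CPM in UV IP and 7.097 ± 0.399 CPM in control IP (SD). In the last exon of Igfbp3 (chr11:7206771-7207040) a peak had 4.83 ± 0.66 CPM in UV IP and 15.9 ± 0.938 CPM in control IP. In exon 19 of Satb1 (chr17:51739721-51740200) a peak had 3.66 ± 0.508 CPM in UV IP and 12.2 ± 1.47 CPM in control IP, and in exon 13 of Slc24a3 (chr2:145606612-145606852) 4.41 ± 0.807 CPM in UV IP and 19.1 ± 2.4 CPM in control IP. In each of these the peak was lower in UV, as was the gene as a whole. Peak and gene counts come from the same IP libraries, so the peaks are not separate support for the gene changes. In the other direction, a peak over several exons of Dbp (chr7:45708359-45709729) had 51.7 ± 10.05 CPM in UV IP and 14.9 ± 1.57 CPM in control IP, and one in exon 5 of Nr1d2 (chr14:18214966-18215414) had 37.3 ± 3.76 CPM in UV IP and 20.2 ± 1.18 CPM in control IP. With these bounds, the Igfbp3 peak was called in both groups, the Nr1d2 peak in UV and the others in control.

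Some called genes lay near one another: 15 groups of at least 3 called genes, with neighbours at most 200 kb apart, held 54 of the 570. How many such groups any 570 of the tested genes would form was not worked out, so the count is a description only. Around Satb1 on chromosome 17 (51736187 to 51863217) 5 genes fell, 4 of them with Gm or Rik names, and around the monoglyceride lipase gene Mgll on chromosome 6 (88724412 to 88828360) 5 rose. Ces2e, Ces2f, Ces2g and Ces4a, carboxylesterase genes on chromosome 8, rose together, and Mrgprb9-ps, Mrgprb3 and Mrgprb11-ps on chromosome 7 fell. Il22ra2 (−2.54), which encodes a soluble decoy receptor of IL-22, fell beside Il20ra on chromosome 10. Neighbouring genes can share a transcript and paralogs can share reads, and the calls within a group may not be independent. Ces4a (adjusted p up to 0.0798) was no longer called without any 1 of UV 1, UV 2 or Control 1. Mgll (adjusted p up to 0.13) and Ces2g (0.112) were no longer called without any 1 of UV 1, UV 2, UV 3 or Control 1. Ces2e (adjusted p up to 0.127) was no longer called without any 1 of UV 1, UV 2, UV 3, Control 1 or Control 2.

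Because the IP values were not corrected for input, the change in the input libraries is set beside them. In input, 1404 of 24099 genes were called (5.83%), 728 higher (3.02%) and 676 lower (2.81%). Gpr179 changed by 2.497 in IP and 2.41 in input, Dab1 by −3.94 and −3.93, Krt77 by −3.86 and −3.73, and Igfbp3 by −1.73 and −1.74 on the log2 scale. The 2 comparisons use libraries of the same 6 samples. Over the 570 genes called in IP, the median absolute difference between the 2 log2 changes was 0.13. The test of that difference, in a model of all 12 libraries, called 3 of 25022 genes (0.012%), none of them among the 570, of which 27 had an unadjusted p below 0.05. Over all 25022 genes, 1109 had an unadjusted p below 0.05 in that test. When each sample was added as a block, since its IP and input libraries have one origin, the test called 399 (211 higher and 188 lower), 6 of them among the 570. The ones of these 6 that the text names were the T cell receptor gene Cd247 (block log2 −0.55, adjusted p = 0.0297), Cdca7l (−0.40, adjusted p = 0.0221) and the sebocyte wax synthase gene Awat1 (−0.30, adjusted p = 0.0402).

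Among called genes of at least 5 CPM, leaving out Gm and Rik names, those with the smallest unadjusted p for a higher IP over input were Sgk1, Ssbp4, Mgst1, Apaf1 and Snhg11. The kinase gene Sgk1 changed by 0.41 in IP and 0.11 in input, and Ssbp4, a gene of a single-stranded DNA binding protein, by 0.56 and −0.012. Apaf1, which encodes the apoptosome scaffold, changed by 0.92 in IP and 0.61 in input. Those for a lower one were Slc9a9, Cd247, Tmem139, Cdca7l and Ciart. Slc9a9, a sodium-proton exchanger gene, changed by −1.34 and −0.90, Cd247 by −0.79 and −0.24, and Ciart by 1.06 and 1.54. None of the 10 differences passed the test without the block. Exons of Cd247 overlap those of Pou2f1 on the other strand over 56% of their bases, and the sources used here do not say whether counting used strand. Snhg11 (adjusted p up to 0.082) was no longer called without any 1 of UV 1, UV 2 or Control 1. Sgk1 (adjusted p up to 0.165), Ssbp4 (0.134), Mgst1 (0.131), Tmem139 (0.181) and Cdca7l (0.172) were no longer called without any 1 of UV 1, UV 2, UV 3, Control 1 or Control 2. Sgk1, Tmem139 and Cdca7l were also not called with library size only (adjusted p of 0.0753, 0.0692 and 0.0501).

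**Figure D3:**
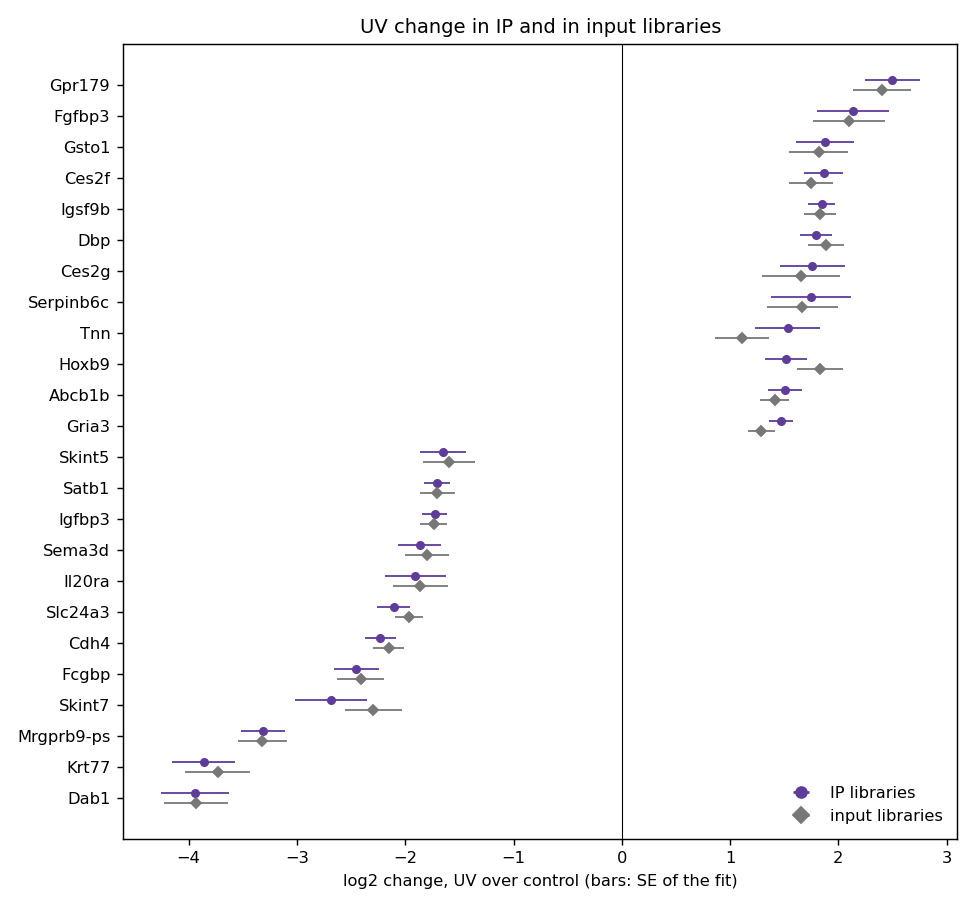
Log2 change, UV over control, of the 24 genes with the largest changes in the IP libraries (circles) and of the same genes in the input libraries (diamonds); bars are the standard errors of the fits. Among the visible gaps are those of Tnn (1.53 against 1.11) and Skint7 (−2.69 against −2.29). The edgeR test of the difference called neither (unadjusted p = 0.351 and 0.409). With the sample as a block, adjusted p was 0.31 and 0.683.

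Clock genes differed in both directions. The circadian clock runs on the activators CLOCK, ARNTL and NPAS2, which switch on the repressor genes Per and Cry through the E-box, and on the output factors DBP and TEF, which act through the D-box. Of 19 clock genes measured, 7 were called higher and 2 lower, against 1.45% and 1.05% of all genes, and their median log2 change was 0.50, against −0.00097 for all genes. The sources used here do not give the time of day of collection, and its part was not tested. The activator gene Arntl had 11.8, 10.2 and 10.6 CPM in the UV IP libraries, against 19.2, 17.8 and 18.6 CPM in the control ones. All UV values lay below all control values, and the log2 change was −0.77 (SE 0.097, adjusted p = 0.0103). Npas2, another activator gene, changed by −1.45 (adjusted p = 0.0312), while Clock changed by 0.50 (adjusted p = 0.0944) and was not called. The output gene Dbp (chromosome 7, 45705088 to 45710203) had 69.8, 53.4 and 77.6 CPM in the UV IP libraries, against 17.02, 20.6 and 20.4 CPM in the control ones. UV values were several times the control values without overlap, and the log2 change was 1.79 (SE 0.15, adjusted p = 0.00186). Dbp exons overlap those of Sphk2 over 18% of their bases on the other strand. Ciart, whose protein represses the activators, had 8.72, 10.3 and 9.58 CPM in the UV IP libraries, against 4.55, 5.15 and 3.89 CPM in the control ones, a log2 change of 1.06 (SE 0.14, adjusted p = 0.0106). UV lay above control throughout.

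The repressor genes Per1 (1.20), Per2 (0.88) and Per3 (0.91), the output gene Tef (0.82) and the nuclear receptor gene Nr1d2 (0.83) were called higher too. Nr1d2 had 52.7, 44.8 and 49.8 CPM in the UV IP libraries, against 25.4, 27.8 and 29.5 CPM in the control ones, with no overlap. Its relative Nr1d1 had 0.80 (adjusted p = 0.053), and Cry1 had −0.53 (adjusted p = 0.111); neither was called. The 7 higher calls became 1 without Control 1, 2 in the absence of UV 1 and 4 without UV 2, and the 2 lower calls 0 without UV 2 or Control 1 and 1 in the absence of UV 1 or UV 3. Per3 (adjusted p up to 0.0614), Tef (0.0613) and Nr1d2 (0.0516) were no longer called without UV 1 or Control 1. Arntl (adjusted p up to 0.0566) and Ciart (0.0606) were no longer called without UV 2 or Control 1. Npas2 (adjusted p up to 0.12), Per1 (0.0783) and Per2 (0.0845) were no longer called without any 1 of UV 1, UV 2, UV 3 or Control 1.

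Promoters of called clock genes that hold an E-box or D-box are shown, 1 per gene, and the part of these motifs in the changes was not tested. Each is the 250 bases before the annotated start in RefSeq (GRCm38.p6). E-box CACGTG or D-box TTATGTAA is in capitals, searched on both strands (CACGTG reads the same on both). A further start of Per1 (chr11:69099902-69100151) had 0 E-boxes and one of Tef (chr15:81811164-81811413) had 1, and these are not shown. Ciart (chr3:95882229-95882478, minus strand) holds 3 E-boxes, Per1 (chr11:69098699-69098948, plus strand) 1, Tef (chr15:81802423-81802672, plus strand) 1 and Per3 (chr4:151044666-151044915, minus strand) 2 D-boxes.
Ciart: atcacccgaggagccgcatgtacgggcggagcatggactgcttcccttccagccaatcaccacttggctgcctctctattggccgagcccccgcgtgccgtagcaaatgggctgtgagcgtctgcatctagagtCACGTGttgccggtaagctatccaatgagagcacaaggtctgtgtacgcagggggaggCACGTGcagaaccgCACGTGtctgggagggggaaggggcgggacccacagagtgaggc
Per1: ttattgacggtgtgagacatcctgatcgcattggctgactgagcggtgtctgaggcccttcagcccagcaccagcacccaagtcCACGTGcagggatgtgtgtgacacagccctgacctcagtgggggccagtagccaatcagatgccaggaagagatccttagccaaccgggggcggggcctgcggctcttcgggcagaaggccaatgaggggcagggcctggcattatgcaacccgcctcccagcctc
Tef: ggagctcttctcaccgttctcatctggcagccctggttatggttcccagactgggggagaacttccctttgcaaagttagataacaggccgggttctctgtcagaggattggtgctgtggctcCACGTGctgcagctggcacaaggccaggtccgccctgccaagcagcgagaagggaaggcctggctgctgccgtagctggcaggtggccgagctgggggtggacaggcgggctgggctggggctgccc
Per3: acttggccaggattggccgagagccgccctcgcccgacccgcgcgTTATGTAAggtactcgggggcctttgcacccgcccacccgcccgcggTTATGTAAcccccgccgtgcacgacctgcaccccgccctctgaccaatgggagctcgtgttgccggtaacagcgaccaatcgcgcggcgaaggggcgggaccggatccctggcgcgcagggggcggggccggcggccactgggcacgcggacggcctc
Of 27025 genes with a promoter of that length, 6.86% held an E-box and 0.977% a D-box. Of 16 clock genes with an entry, 5 held an E-box: 3 of the 6 called higher, and Cry1 and Bhlhe41 (0.52, adjusted p = 0.193), which were not called. Dbp and Nr1d2, called higher, and Arntl and Npas2, called lower, had neither motif there.

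The p53 response comprises genes that p53 switches on after DNA damage. Of 24 measured, 11 rose in UV IP and 0 fell, against 1.45% and 1.05% of all genes tested, with a median log2 change of 0.50. Polk, which encodes a DNA polymerase that copies past damaged bases, had 47.8, 40.1 and 40.8 CPM in the UV IP libraries, against 20.3, 17.4 and 17.9 CPM in the control ones. The groups did not overlap and the log2 change was 1.21 (SE 0.11, adjusted p = 0.00207), a call kept in all 6 omissions. Eda2r, a death-domain receptor gene, had 6.86, 4.95 and 5.27 CPM in the UV IP libraries, against 1.84, 1.92 and 2.298 CPM in the control ones. UV was higher throughout, with a log2 change of 1.504 (SE 0.18, adjusted p = 0.0078). Ccng1, the cyclin G1 gene, changed by 0.86 (SE 0.11, adjusted p = 0.0111) and the kinase gene Plk2 by 0.78 (SE 0.11, adjusted p = 0.0146), and both were higher in every UV library than in any control library. The apoptosis genes Bax (0.52), Pmaip1 (1.27) and Fas (0.80), and Ei24 (0.65), Zmat3 (0.66), Sesn2 (0.50) and Trp53inp1 (0.53) rose as well, whereas the cell cycle inhibitor gene Cdkn1a (0.50, adjusted p = 0.063) and Mdm2 (0.33, adjusted p = 0.0831) were not called. The 11 became 1 without Control 1, 2 in the absence of UV 1, 3 without UV 2 and 5 in the absence of UV 3. Eda2r (adjusted p = 0.0516) was no longer called without Control 1. Ccng1 (adjusted p up to 0.0609) was no longer called without UV 1 or Control 1. Plk2 (adjusted p up to 0.0799) and Ei24 (0.0926) were no longer called without any 1 of UV 1, UV 2 or Control 1. Bax (adjusted p up to 0.0977), Pmaip1 (0.113) and Trp53inp1 (0.148) were no longer called without any 1 of UV 1, UV 2, UV 3 or Control 1. Fas (adjusted p up to 0.153), Zmat3 (0.116) and Sesn2 (0.164) were no longer called without any 1 of UV 1, UV 2, UV 3, Control 1 or Control 2. Trp53inp1 was also not called with library size only, upper quartile factors or a mean of at least 1 CPM (adjusted p up to 0.0674). Of 23 nucleotide excision repair genes, which remove UV lesions from DNA, the endonuclease gene Ercc5 was the 1 that rose (0.68, SE 0.086, adjusted p = 0.0106). That call ended without UV 1 or Control 1 (adjusted p up to 0.061).

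Mouse epidermis holds a resident population of gamma delta T cells. Of 14 T cell genes measured, 0 rose and 6 fell in UV IP, against 1.45% and 1.05% of all genes, with a median of −0.59. Tcrg-C1, a gamma chain constant gene, had 0.145, 0.327 and 0.141 CPM in the UV IP libraries, against 2.39, 2.79 and 3.26 CPM in the control ones. The UV values were near 0 and all control values were higher, with a log2 change of −3.60 (SE 0.33, adjusted p = 0.0027). The delta chain gene Trdv4 changed by −3.67 (SE 0.33, adjusted p = 0.00227). Cd3g, a signalling subunit of the receptor complex, had 0.695, 0.633 and 0.609 CPM in the UV IP libraries, against 4.44, 5.14 and 5.23 CPM in the control ones, and Cd3e changed by −2.42 (SE 0.27, adjusted p = 0.00693). All of these were called in all 6 omissions. Cd247 changed by −0.79. Trdc, the delta constant gene, had 0, 0.0633 and 0 CPM in the UV IP libraries, against 0.334, 0.445 and 0.816 CPM in the control ones and was called, but with near 0 in UV its fold is not a measured size. Only 3 of the 14 genes had a positive log2 change, and none of these was called. They were Cd4 (0.43, adjusted p = 0.473), Cd8a (0.70, adjusted p = 0.644) and Trbc2 (0.23, adjusted p = 0.668), genes of alpha beta T cells. These 3 are named for their sign, and no test set genes of alpha beta T cells against those of gamma delta T cells. Summed over the list, T cell genes held 42.8, 47.6 and 43.4 CPM in the UV IP libraries, against 60.1, 59.4 and 68.1 CPM in the control ones. Cd247 (adjusted p up to 0.0832) was no longer called without any 1 of UV 1, UV 2, UV 3 or Control 1. Trdc (adjusted p up to 0.143) was no longer called when any single library was left out.

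Langerhans cells are the antigen-presenting cells of the epidermis. Of 12 genes of Langerhans and dendritic cells, 0 rose and 4 fell, where 1.45% and 1.05% of all genes did, with a median of −0.57. Cd207, which encodes langerin, had 0.782, 0.929 and 0.562 CPM in the UV IP libraries, against 2.39, 2.67 and 3.52 CPM in the control ones. The UV values lay below all control values, with a log2 change of −1.87 (SE 0.25, adjusted p = 0.0112). The antigen presentation genes Cd74 (−0.68, adjusted p = 0.0106) and H2-Ab1 (−0.59, adjusted p = 0.0177) fell as well, with the dendritic cell factor gene Zbtb46 (−0.67, adjusted p = 0.0471). The sum of the list was 213, 204 and 229 CPM in the UV IP libraries, against 283, 294 and 304 CPM in the control ones. The 4 calls became 0 without UV 1, 1 in the absence of UV 2 or Control 1 and 2 without UV 3. Cd207 (adjusted p = 0.0585) was no longer called without UV 1. Cd74 (adjusted p up to 0.0588) was no longer called without any 1 of UV 1, UV 2 or Control 1. H2-Ab1 (adjusted p up to 0.0975) was no longer called without any 1 of UV 1, UV 2, UV 3 or Control 1. Zbtb46 (adjusted p up to 0.173) was no longer called without any 1 of UV 1, UV 2, UV 3, Control 1 or Control 2. Zbtb46 was also not called with library size only (adjusted p = 0.0522). Of 7 mast cell genes, the protease gene Mcpt4 rose (1.25, adjusted p = 0.0129), which ended without UV 1, UV 2, UV 3 or Control 1 (adjusted p up to 0.0728). No gene of 12 macrophage genes (2 with an unadjusted p below 0.05) or 7 neutrophil genes (0) was called in edgeR or DESeq2.

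Sebocytes fill the sebaceous gland with wax esters and other lipids. Of 13 sebocyte genes measured, 7 rose in UV IP and 0 fell, against 1.45% and 1.05% of all genes, with a median of 0.71. Dgat2l6, which encodes an acyltransferase of sebocytes, had 66.3, 68.3 and 49.8 CPM in the UV IP libraries, against 24.4, 20.9 and 24.4 CPM in the control ones. UV was higher in every library and the log2 change was 1.41 (SE 0.13, adjusted p = 0.00351), called in all 6 omissions. Awat1, a wax synthase gene, changed by 1.21 (adjusted p = 0.0139), the lipid droplet gene Cidea by 0.98 (adjusted p = 0.0106) and the fatty acid elongase gene Elovl3 by 0.96 (adjusted p = 0.0112). Far2 (0.75), Scd1 (0.75) and Soat1 (0.71), which make fatty alcohols, unsaturated fatty acids and sterol esters, rose too. Summed, sebocyte genes held 2394, 2102 and 2014 CPM in the UV IP libraries, against 1421, 1141 and 1388 CPM in the control ones, and the sum was higher in all 3 UV libraries. The 7 calls became 1 without UV 1, UV 2 or Control 1. Awat1 (adjusted p up to 0.0745), Cidea (0.0566), Elovl3 (0.0643) and Far2 (0.0926) were no longer called without any 1 of UV 1, UV 2 or Control 1. Scd1 (adjusted p up to 0.143) was no longer called without any 1 of UV 1, UV 2, UV 3 or Control 1. Soat1 (adjusted p up to 0.10) was no longer called without any 1 of UV 1, UV 2, Control 1 or Control 2.

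Of 15 adipocyte genes, 6 rose and 0 fell, against 1.45% and 1.05% of all genes, with a median of 0.49. Plin4, which encodes a lipid droplet coat protein, had 157, 154 and 135 CPM in the UV IP libraries, against 83.8, 84.3 and 93.5 CPM in the control ones. The groups did not overlap and the log2 change was 0.77 (SE 0.091, adjusted p = 0.00773). The fatty acid transporter gene Cd36 changed by 0.87 (adjusted p = 0.0112), the adipogenic regulator gene Pparg by 0.92 (adjusted p = 0.0275) and the lipase gene Lpl by 0.50 (adjusted p = 0.0221), with Cidec (0.77) and Fabp4 (0.49). Summed, the list held 944, 845 and 938 CPM in the UV IP libraries, against 642, 628 and 718 CPM in the control ones, higher in every UV library. Several of these genes are expressed in sebocytes as well. The 6 calls became 0 without UV 1 or Control 1, 2 in the absence of UV 2 and 3 without UV 3 or Control 2. Plin4 (adjusted p up to 0.0528) and Cd36 (0.0579) were no longer called without UV 1 or Control 1. Lpl (adjusted p up to 0.109) was no longer called without any 1 of UV 1, UV 2, UV 3 or Control 1. Pparg (adjusted p up to 0.121) was no longer called without any 1 of UV 1, UV 2, Control 1 or Control 2. Cidec (adjusted p up to 0.137) and Fabp4 (0.154) were no longer called without any 1 of UV 1, UV 2, UV 3, Control 1 or Control 2.

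Most matrix genes were not called in edgeR. Of 16 interstitial collagen genes, 2 rose and 1 fell, against 1.45% and 1.05% of all genes, with a median of −0.29. Only 4 of the 16 had a positive log2 change. An unadjusted p below 0.05 in edgeR was found for 11, and DESeq2 called 5. Over all 22789 genes these counts were 4463 and 1372. Summed, the list held 4465, 5161 and 5178 CPM in the UV IP libraries, against 6146, 6104 and 5596 CPM in the control ones, lower in every UV library. Col6a5 changed by 1.00 (SE 0.14, adjusted p = 0.0129) and Col12a1, which encodes a collagen on the surface of fibrils, by 0.80 (SE 0.11, adjusted p = 0.0134); Col15a1 changed by −0.49 (SE 0.096, adjusted p = 0.0385). The type I collagen genes Col1a1 (−0.45, adjusted p = 0.20) and Col1a2 (−0.39, adjusted p = 0.20) were not called. Of 26 collagen-processing genes, the propeptidase gene Adamts14 fell (−1.33, adjusted p = 0.0112), and of 18 elastic fibre and microfibril genes, Ltbp1 fell (−0.49, adjusted p = 0.0324). Dcn, the decorin gene, was the 1 of 12 proteoglycan genes that fell (−0.56, adjusted p = 0.0424). The basement membrane list had 1 lower gene of 18, Col4a6 (−1.04, adjusted p = 0.0372), and the list of 15 metalloproteinases and inhibitors 1 higher, Timp4 (0.93, adjusted p = 0.0451). Adamts14 (adjusted p = 0.0647) was no longer called without Control 1. Col12a1 (adjusted p up to 0.0625) was no longer called without UV 2 or Control 1. Col6a5 (adjusted p up to 0.0633) was no longer called without any 1 of UV 1, UV 2 or Control 1. Col15a1 (adjusted p up to 0.169), Ltbp1 (0.16), Col4a6 (0.148) and Timp4 (0.182) were no longer called without any 1 of UV 1, UV 2, UV 3, Control 1 or Control 2. Dcn (adjusted p up to 0.173) was no longer called when any single library was left out.

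Mfap4, which encodes a microfibril-associated glycoprotein, had 6.69, 7.85 and 11.2 CPM in the UV IP libraries, against 13.1, 10.4 and 8.82 CPM in the control ones. The groups overlapped, and its log2 change was −0.34 (SE 0.21, adjusted p = 0.421), not called. In input its log2 change was −0.69. The change in IP minus that in input was 0.35 (SE 0.30, unadjusted p = 0.268 in the edgeR test of the difference). With the sample as a block the difference was 0.37 (adjusted p = 0.146). Virma, held in the count table under its older symbol 1110037F02Rik, had 136, 149 and 136 CPM in the UV IP libraries, against 140.4, 127 and 138 CPM in the control ones. The groups overlapped and its log2 change was 0.055 (SE 0.081, adjusted p = 0.762). Its log2 change in IP minus that in input was −0.24 (SE 0.11, unadjusted p = 0.0546 in the edgeR test of the difference). With the sample as a block the difference was −0.25 (adjusted p = 0.151). A difference below 0 means that the change of Virma in input was higher than that in IP. Neither difference was called, and the IP value alone does not give the change of the transcript. Of 11 writer genes none was called in edgeR or DESeq2 (1 had an unadjusted p below 0.05), with a median of −0.051, and of 11 reader and eraser genes none was (0 unadjusted), with a median of −0.020. Of all genes tested, edgeR called 2.5%, so lists of this size could hold no call without differing from other genes. The catalytic gene Mettl3 had a log2 change of −0.19 (adjusted p = 0.289).

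Keratinocyte genes gave calls in both directions. Of 21 differentiation genes, the transglutaminase gene Tgm3 rose (1.06, adjusted p = 0.0197), while Krt77 and Flg2 fell. Beside the counts of this paragraph, 1.45% of all genes tested were called higher and 1.05% lower. Flg2, a filaggrin-related barrier gene, had 1578, 1177 and 1816 CPM in the UV IP libraries, against 4078, 3779.7 and 4066 CPM in the control ones. All UV values were lower than all control values, with a log2 change of −1.38 (SE 0.16, adjusted p = 0.00705), called in all 6 omissions. Of 9 basal genes, the integrin gene Itgb4 rose (0.90, adjusted p = 0.0106) and Krt15, a gene of the hair follicle bulge, fell (−0.88, adjusted p = 0.0332). Krt6a (1.996, adjusted p = 0.193) and Krt16 (1.87, adjusted p = 0.302), keratins of stressed epidermis, were not called; of the 11 genes of that list, S100a9 rose (0.97, adjusted p = 0.0356). Without Control 3, 6 of the list were called higher. The 9 basal genes summed to 14734, 12068 and 11487 CPM in the UV IP libraries, against 8917, 6526 and 10920.0 CPM in the control ones, with every UV value above every control value. Itgb4 (adjusted p up to 0.061) was no longer called without UV 2 or Control 1. Tgm3 (adjusted p up to 0.099) was no longer called without any 1 of UV 1, UV 2, UV 3 or Control 1. S100a9 (adjusted p up to 0.145) was no longer called without any 1 of UV 1, UV 2, Control 1 or Control 2. Krt15 (adjusted p up to 0.139) was no longer called without any 1 of UV 1, UV 2, UV 3, Control 1 or Control 2.

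Hair and muscle genes varied widely between libraries of 1 group. None of 22 hair genes was called (median −0.42; 5 had an unadjusted p below 0.05 and DESeq2 called 1) and none of 20 skeletal muscle genes (median −1.03; 13 and 3), in which Pvalb had a log2 change of −1.999 (adjusted p = 0.0624). Muscle genes summed to 11203, 6241 and 17100.0 CPM in the UV IP libraries, against 15358, 29825 and 17947 CPM in the control ones, with Control 2 highest; of these genes 2 were called lower without Control 3 and 1 without UV 3. In edgeR none was called of 10 melanocyte genes (1 with an unadjusted p below 0.05), 9 Schwann cell genes (2), 9 smooth muscle genes (2), 6 erythroid genes (1), 20 interferon response genes (5) or 13 heat shock genes (4). DESeq2 called 2 of the interferon response genes and 0 of the others. Beside these counts, 4463 of all 22789 genes had an unadjusted p below 0.05 in edgeR, and DESeq2 called 1372.

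In the remaining lists few genes were called, where 1.45% of all genes tested were called higher and 1.05% lower. The chemokine gene Ccl27a fell (−0.89, adjusted p = 0.034), the immediate early gene Fosb fell (−1.64, adjusted p = 0.0181), and Ccne1 (0.75, adjusted p = 0.0202) and Tyms (0.50, adjusted p = 0.031), genes of S phase entry and of thymidylate synthesis, were the 2 of 24 cell cycle genes that rose. Tgfb2 fell (−0.57, adjusted p = 0.0421) and Tgfb3 rose (0.51, adjusted p = 0.0366) among 17 TGF-beta signalling genes. The thioredoxin reductase gene Txnrd1 fell (−0.59, adjusted p = 0.0218) beside the rise of Gsto1 among 26 antioxidant genes. Plvap (0.46, adjusted p = 0.0329), an endothelial gene, and Crabp1 (1.01, adjusted p = 0.0141), a retinoic acid binding protein gene of fibroblasts, rose. Of 12 endothelial genes, 11 had a positive log2 change, 9 had an unadjusted p below 0.05 in edgeR and DESeq2 called 3. Over all 22789 genes, 4463 had such a p and DESeq2 called 1372. Endothelial genes summed to 232, 197 and 201 CPM in the UV IP libraries, against 160, 174 and 157 CPM in the control ones. Txnrd1 (adjusted p up to 0.097) and Crabp1 (0.0794) were no longer called without any 1 of UV 1, UV 2 or Control 1. Fosb (adjusted p up to 0.0915) was no longer called without any 1 of UV 1, UV 2, UV 3 or Control 1. Tgfb2 (adjusted p up to 0.181) and Tgfb3 (0.16) were no longer called without any 1 of UV 1, UV 2, Control 1 or Control 2. Ccl27a (adjusted p up to 0.139), Ccne1 (0.0958), Tyms (0.121) and Plvap (0.164) were no longer called without any 1 of UV 1, UV 2, UV 3, Control 1 or Control 2. Tgfb3 and Tyms were also not called with library size only (adjusted p of 0.0602 and 0.0501).

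**Figure D4:**
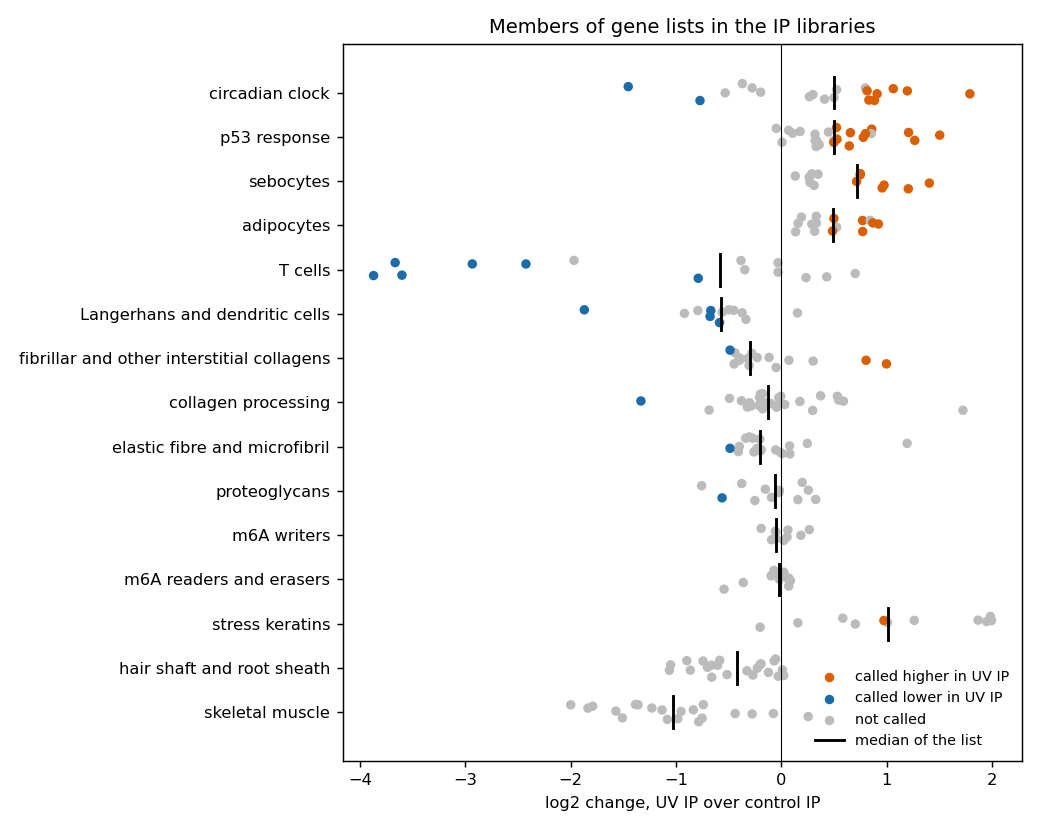
Log2 change, UV IP over control IP, of the members of 15 gene lists; orange points were called higher, blue called lower, grey not called, and the bar is the median of the list. Clock, p53, sebocyte and adipocyte lists hold only higher calls except for 2 clock genes, and the T cell and Langerhans and dendritic cell lists hold only lower calls.

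**Figure D5:**
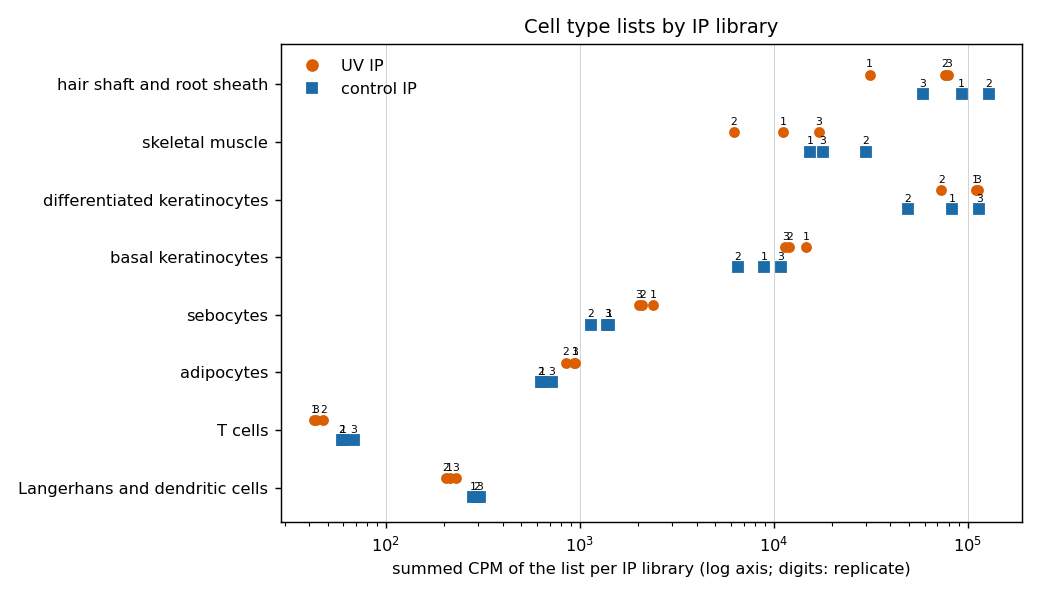
Summed CPM of each cell type list in each IP library, on a log axis, with circles for UV and squares for control and digits for the replicate. Sebocyte and adipocyte sums are higher in all 3 UV libraries and T cell and Langerhans and dendritic cell sums lower, while the hair and muscle sums overlap between the groups.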

How the data were processed

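m6A immunoprecipitation and input libraries from skin of 3 UV-exposed and 3 control samples were sequenced, after extraction of total RNA and a stranded library kit, per the labels' protocols. The authors deposited raw read counts per gene for 49492 genes and 12 libraries, and counts per peak, per the file headers. STAR 2.5.3a and the GRCm38 build were used, per the submitters' processing notes; the sources used here do not give the read counter, annotation release, strand use, duplicate handling or peak caller. In each library 79.5% to 83.6% of counts between 1 and 20 were even, as counting each mate of a read pair would produce.

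Groups came from the sample titles. Counts were scaled with TMM, filtered with filterByExpr and tested with the quasi-likelihood test of edgeR 4.0.16 (R 4.3.3), UV against control IP libraries, unpaired, with Benjamini-Hochberg adjustment over all genes tested. Input libraries were tested alike. The change of IP over input was fitted in one model of 4 group means over all 12 libraries, and again with the sample as a block. IP and input of 1 number come from 1 sample, per the titles. The deviations of UV and control IP libraries of the same number correlated at −0.107, 0.145 and −0.229 over 11486 genes. Those of unlike number ran from −0.433 to 0.53. Like numbers thus did not stand out, and whether they shared a batch was not tested.

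DESeq2 1.42.0, other scalings and filters, and leaving out each library were tried. On simulated counts with known changes over 22381 genes the IP comparison recovered 96% and 94% of genes changed by 1 and −1 on the log2 scale, 50 each, with 24 false calls. The changed genes, 200 in all, were taken only from those of at least 5 CPM. Counts were drawn independently for each gene and library. The simulation therefore does not describe rarer genes, or differences such as hair content that many genes of a library share. The spread between replicates exceeded counting noise (chi-square over its degrees of freedom between 50.2 and 167 over pairs within a group), so depth alone did not set the precision.

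Genes were named by rule: Virma and Mfap4; the 12 largest changes in each direction among called genes with a mean of 5 CPM or more, groups that do not overlap and no Gm or Rik name; the 4 members of each list with the smallest p; and, in each direction, the 5 called genes with the smallest p for IP over input, with the same limits on CPM and names. Other called list members and neighbours were named after their values were seen. The comparison, its 37 gene lists and the rule were chosen with earlier results of these data known. Peak starts were counted from 0 in the deposited table, since adding 1 made 1792 meet an exon start and other offsets at most 82, and are printed counting from 1. Promoter sequences are from RefSeq. Gene sequences under peaks were not used here.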

Additional observations from a re-analysis of the deposited data

Results flagged for a closer look

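Of 25022 genes tested for a UV change of IP relative to input, 3 were called in the fit without the sample as a block. That fit does not use the common origin of the IP and input libraries of a sample. With the sample as a block 399 were called. Among them were these 3: Gm12912 (adjusted p = 0.000575), Gm22031 (4.52e-07) and Gm23153 (6.85e-09). The values below are from the fit without the block. Gm12912 had 1.25, 1.12 and 1.03 CPM in UV IP, against 0.901, 1.22 and 0.741 CPM in control IP, and 0.795, 0.904 and 0.85 CPM in UV input, against 3.01, 3.12 and 3.73 CPM in control input. Its log2 change in IP minus that in input was 2.16 (SE 0.29, adjusted p = 0.0403); IP libraries overlapped and input libraries were lower in UV. Gm22031 had 4.402, 4.71 and 5.34 CPM in UV IP, against 3.54, 5.89 and 5.04 CPM in control IP, and 0.227, 0.59 and 0.545 CPM in UV input, against 3.78, 5.24 and 3.64 CPM in control input. Its log2 change in IP minus that in input was 3.13 (SE 0.37, adjusted p = 0.019); IP libraries overlapped and input libraries were lower in UV. Gm23153 had 5.65, 4.88 and 5.199 CPM in UV IP, against 4.09, 4.896 and 5.26 CPM in control IP, and 39.9, 46.5 and 44.2 CPM in UV input, against 177, 143 and 206 CPM in control input. Its log2 change in IP minus that in input was 2.15 (SE 0.19, adjusted p = 0.00151); IP libraries overlapped and input libraries were lower in UV. None of the 3 was called in the IP comparison. No explanation was tested.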

How the results depend on the processing

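The 570 calls (330 higher and 240 lower) became 1426 (730 and 696) with no filter on low counts, 1372 (696 and 676) with DESeq2, 1028 (586 and 442) with all 12 libraries in one fit and 267 (137 and 130) when a 2-fold change was required. Without 1 library at a time the number ran from 67 to 1248 (33 to 745 higher, 34 to 503 lower). With library size only, upper quartile factors, a mean of at least 1 CPM or counts halved it was 581, 575, 482 and 606. The replicate number as a block across UV and control gave 247 calls (146 and 101), although the titles do not say that the numbers pair these samples. The input count of 1404 became 713 with the replicate block, and 219 to 2100 without 1 library. The 3 calls for IP over input became 5 with library size only, 399 with the sample as a replicate block and 0 to 7 without 1 sample. Some named genes that were not called changed sign without 1 library, with log2 changes over the omissions of Csf3r (−0.040 to 0.46), Hba-a1 (−0.054 to 0.23), Hba-a2 (−0.52 to 0.13), Lmod1 (−0.50 to 0.052) and Mpo (−0.095 to 0.23). The cause was not tested. Replicates differed beyond counting noise, so depth alone did not set the precision.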

Other observations

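Among the 52 genes called in all 6 omissions were some of other functions, picked after their values were seen. Ephx1, which encodes an epoxide hydrolase, had 31.2, 30.8 and 32.2 CPM in the UV IP libraries, against 17.2, 14.8 and 17.2 CPM in the control ones, a log2 change of 0.94 (SE 0.092, adjusted p = 0.00432) in edgeR. The UV values were higher throughout. The conjugate exporter gene Abcc3 (1.18) and the cytochrome P450 gene Cyp3a13 (1.14) were also higher. Mcam, a cell adhesion molecule gene of vessel walls, changed by 0.84 and Dkk2, a Wnt antagonist gene, by 0.98. On the lower side, the neuronal adhesion gene Lsamp changed by −2.84, the noncoding RNA gene Miat by −1.55, the kinase gene Wnk2 by −0.94 and the ubiquitin ligase gene Lnx1 by −1.03. These are values only.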
